A study of Mus musculus with 6 samples.

Results

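The 9 genes described here encode complement proteins and 2 multifunctional secreted proteins that restrain the terminal step of the cascade. They are C4b, C3, Cfb and Cfd of the activation steps, the regulators Cfi, Serping1 and Cd55, vitronectin (Vtn) and clusterin (Clu). The members were chosen by symbol, with the abundances of the WT and Ucp1-KO cultures already known, so the difference between the genotypes is given for them as a description and without a test. They are 9 of the 22466 genes with a RefSeq transcript in the table. Cfb alone had more than 1 RefSeq row, and the row with the higher mean over the cultures was taken.

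The study asked how cultured brown adipocytes with and without Ucp1, the uncoupling protein of brown fat mitochondria, differ. Precursor cells from the interscapular brown fat of young male mice of the strain 129SvEvS1, either wildtype or UCP1(-/-), were grown to confluence and differentiated in vitro. All cultures received the same adipogenic mixture of isobutylmethylxanthine, indomethacin, dexamethasone, insulin, T3 and rosiglitazone, followed by insulin, T3 and rosiglitazone, and carried no other labelled treatment. RNA was sequenced from WT replicates 10, 11 and 12 and from Ucp1-KO replicates 13, 14 and 15, 3 cultures of each genotype. The cultures are primary and can hold cells other than adipocytes, and the Ucp1-KO allele still gives a remnant transcript. In such bulk RNA, fewer cells of a type and less RNA per cell cannot be told apart.

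Complement is a cascade of plasma proteins, several of them proteases, that converges on cleavage of the central protein C3 and goes on to the membrane attack complex. The classical pathway starts from C1 and the lectin pathway from lectins with their MASP proteases, both reach C3 through C4 and C2, and the alternative pathway does so through factor B (Cfb) and factor D (Cfd), which cuts factor B. C1 inhibitor (Serping1), factor I (Cfi) and the membrane protein CD55 hold the early steps in check, while vitronectin and clusterin bind the late complexes before they insert into membranes. The liver makes most plasma complement, but factor D, also called adipsin, comes mainly from adipocytes.

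All 9 genes had a mean of at least 0.5 RPKM, the minimum for comparison, where RPKM is a read number scaled by the length of the transcript and the mapped reads of its culture. Mean abundance in WT cells ran from 2.04 RPKM for Cfi to 252 RPKM for Serping1. In 4 of the 9 genes (Cfd, Cfi, Vtn and Clu) every Ucp1-KO culture lay below every WT culture, an arrangement that 5.15% of all 16865 tested RefSeq transcripts showed. In 0 of the 9 did every Ucp1-KO culture lie above every WT culture, which held for 6.04% of all tested. Since the genes were selected on this same contrast, nothing is read from these shares. Over all transcripts, limma with Benjamini-Hochberg adjustment called 0 differences at an adjusted p under 0.05 (0% of those tested, smallest adjusted p 0.868) and limma-voom on reads also 0, while 935 transcripts (limma) and 900 (limma-voom) had an unadjusted p under 0.05. None of the 9 genes was therefore among called transcripts. Nor was Ucp1, the gene that was knocked out, so 0 calls here do not show that abundances were alike. The study's own comparison of these libraries did list differing genes, Vtn, Clu and Cfi among them.

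Behind the values stood between 14989604 and 17727653 reads per culture. At this depth, Serping1 rested on 2434 to 10320 reads and Vtn on 8 to 235, so that counting error weighs most on Vtn and Cfi. It is also considerable for Cd55, whose fewest reads, 47 in WT replicate 10, have an exact Poisson 95% interval of 34.5 to 62.5, and for Clu with 68 reads in replicate 15. Ucp1 itself had 1775, 981 and 1157 RPKM in WT cultures and 307, 409 and 398 RPKM in Ucp1-KO cultures, so that the labelled genotypes did not overlap in it.

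**Figure D1:**
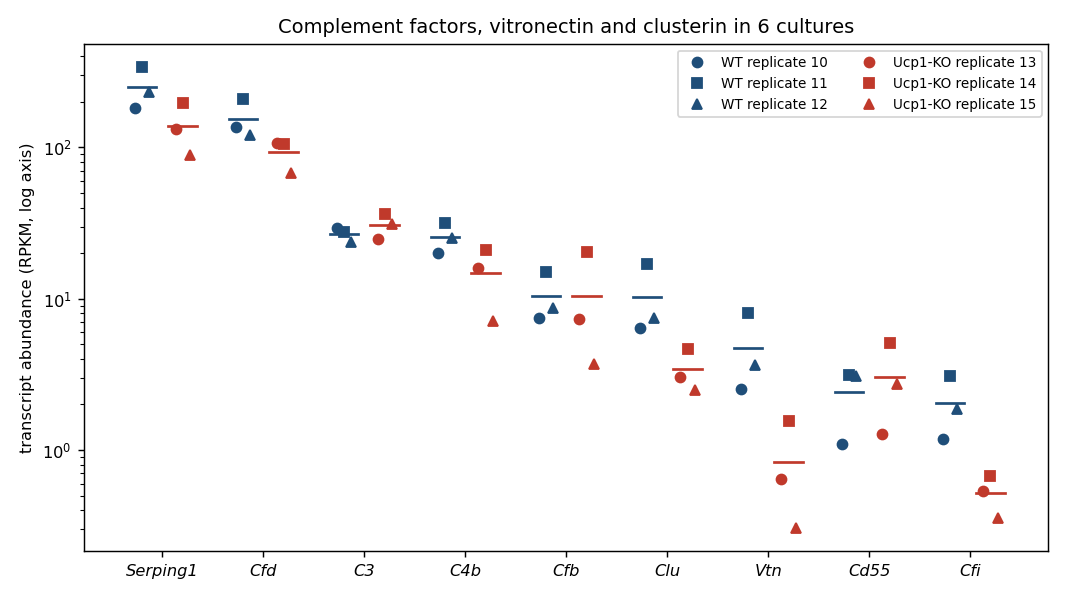
Transcript abundance (RPKM, log axis) of the 9 genes in the 6 cultures, WT in blue and Ucp1-KO in red, with 1 symbol per culture and a bar at each genotype's mean. Red points lie entirely under blue points for Cfd, Clu, Vtn and Cfi, from 0.306 RPKM (Vtn, replicate 15) upwards, while Serping1, the most abundant, reached 340 RPKM in WT replicate 11.

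Promoter sequences from RefSeq, matched by symbol for 4 of the 9 genes, follow, since they include Vtn and Cfd, whose genotypes did not overlap, and C3 and Cd55, whose genotypes did. Each run is the 250 bases before the RefSeq start of transcription on GRCm38.p6, written 5′ to 3′ on the strand of the gene, with capitals at matches to the C/EBP motif TTGCNNAA. Vtn lies on the plus strand at chr11:78498870-78499119, Cfd on the plus strand at chr10:79890603-79890852, C3 on the minus strand at chr17:57228137-57228386, and Cd55 on the minus strand at chr1:130462745-130462994. RefSeq and GENCODE place the start of Vtn at slightly different bases.
Vtn: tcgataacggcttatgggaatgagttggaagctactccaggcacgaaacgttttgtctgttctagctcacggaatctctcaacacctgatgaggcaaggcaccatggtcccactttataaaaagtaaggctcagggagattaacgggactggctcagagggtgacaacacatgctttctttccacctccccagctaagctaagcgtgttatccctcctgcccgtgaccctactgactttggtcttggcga
Cfd: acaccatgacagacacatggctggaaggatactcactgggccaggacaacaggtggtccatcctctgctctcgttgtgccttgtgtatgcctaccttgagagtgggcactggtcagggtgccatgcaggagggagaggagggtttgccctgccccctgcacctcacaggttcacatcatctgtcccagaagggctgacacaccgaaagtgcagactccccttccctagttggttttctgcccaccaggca
C3: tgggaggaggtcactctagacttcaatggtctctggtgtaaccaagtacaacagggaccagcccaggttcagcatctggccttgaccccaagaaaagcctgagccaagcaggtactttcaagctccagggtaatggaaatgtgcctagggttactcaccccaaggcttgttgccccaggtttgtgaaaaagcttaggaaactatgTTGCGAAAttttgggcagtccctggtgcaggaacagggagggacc
Cd55: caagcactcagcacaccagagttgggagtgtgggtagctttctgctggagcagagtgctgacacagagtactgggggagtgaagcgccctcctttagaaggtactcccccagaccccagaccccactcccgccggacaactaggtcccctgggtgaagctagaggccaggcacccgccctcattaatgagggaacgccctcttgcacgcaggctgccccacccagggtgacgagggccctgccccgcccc
C/EBP proteins, transcription factors of adipocyte differentiation and the acute phase, had 1 match among the 4 promoters. This match, TTGCGAAA in C3, begins 45 bases before the start. For comparison, 9.56% of 32851 mouse promoters of the same length hold the motif on either strand. STAT proteins, which carry interferon and interleukin signals, are represented by the GAS motif TTCNNNGAA, which had 0 matches in the 4 sequences and occurs in 7.02% of all promoters. NF-kB, the main inflammatory factor, also had 0 matches and a share of 7.25% of all promoters. The motifs do not overlap in these windows, and a match of letters is not evidence of binding. Guanine and cytosine made up 50.4% of the Vtn, 57.6% of the Cfd, 52% of the C3 and 64% of the Cd55 sequence.

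Complement C4b, which is cleaved in the classical and lectin pathways and then binds C2, is encoded on the minus strand at chr17:34728380-34743882. Its abundance was 20.2, 31.5 and 25.3 RPKM in WT replicates 10, 11 and 12 and 16, 21 and 7.14 RPKM in Ucp1-KO replicates 13, 14 and 15. Replicate 14 reached the range of WT cells, whereas the other Ucp1-KO cultures lay below all WT cultures. The means were 25.7 ± 5.69 RPKM in WT against 14.7 ± 7.02 RPKM in Ucp1-KO cells (n = 3 each, SD), that is 57.3% of WT. The difference was -0.86 (standard error 0.36) on the scale of log2(RPKM + 1), Ucp1-KO minus WT. Without replicate 15 the difference was -0.44, and without replicate 14 it was -1.16. The near-identical paralog C4a was listed under the minimum of 0.5 RPKM, and how reads shared by both were assigned is not known beyond their being uniquely identified.

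C3, the protein on which all pathways converge, is encoded on the minus strand at chr17:57203970-57228136. The C3 transcript was present at 29.2, 27.7 and 23.6 RPKM in WT cells and at 24.7, 36.6 and 31.1 RPKM in Ucp1-KO cells. These ranges overlap, and the Ucp1-KO mean of 30.8 ± 5.95 RPKM was 115% of the WT mean of 26.8 ± 2.87 RPKM (n = 3 each, SD). The log2 difference was 0.18 (standard error 0.16), and lay at 0.05 without replicate 14 and at 0.32 without replicate 13. C3 was the steadiest of the 9 genes, its highest culture being 1.55 times its lowest, against 26.4 times for Vtn.

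Factor B, the protease that joins C3b in the alternative pathway convertase, is encoded by Cfb on the minus strand at chr17:34856374-34862518, 112492 bases from C4b. The most abundant Cfb transcript had 7.46, 15.1 and 8.65 RPKM in WT cells and 7.33, 20.2 and 3.69 RPKM in Ucp1-KO cells. The lowest and the highest culture were both Ucp1-KO, and the means of 10.4 ± 4.09 and 10.4 ± 8.68 RPKM (n = 3 each, SD) were alike. On the log2 scale the difference was -0.22 (standard error 0.54), with the sign set by single cultures, since it was -0.81 without replicate 14 and 0.28 without replicate 15. A readthrough gene on the same strand, Gm20547, covers 79.5% of the exon bases of Cfb, so that their reads cannot be told apart.

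Factor D, the adipsin of adipocytes, which cuts C3b-bound factor B, is encoded by Cfd on the plus strand at chr10:79890853-79892655. Its abundance was 137, 208 and 120 RPKM in WT cells and 106, 106 and 67.4 RPKM in Ucp1-KO cells. The genotypes did not overlap, but the gap between the lowest WT culture and the nearest Ucp1-KO cultures was small against the spread within WT cells. Means of 155 ± 46.4 RPKM in WT against 93.1 ± 22.3 RPKM in Ucp1-KO cells (n = 3 each, SD) gave a ratio of 60.1% and a log2 difference of -0.72 (standard error 0.26). The difference was -0.49 without WT replicate 11 and -0.27 without both WT replicate 11 and Ucp1-KO replicate 15, a pair left out after the data were seen. Cfd held places 292 to 515 among the 28890 RefSeq transcripts in WT cultures and 625 to 995 in Ucp1-KO cultures.

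C1 inhibitor, the serpin that inactivates the C1 proteases and also plasma kallikrein, is encoded by Serping1 on the minus strand at chr2:84765387-84775444. This was the most abundant of the 9 transcripts in every culture, with 183, 340 and 234 RPKM in WT cells and 132, 196 and 89.2 RPKM in Ucp1-KO cells. Replicate 14 lay above WT replicate 10, so the genotypes overlapped. The means were 252 ± 80.0 RPKM in WT against 139 ± 53.6 RPKM in Ucp1-KO cells (n = 3 each, SD), a ratio of 55.2% and a log2 difference of -0.88 (standard error 0.33), which became -0.36 without WT replicate 11 and Ucp1-KO replicate 15.

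Factor I, which cleaves C3b and C4b into inactive pieces, is encoded by Cfi on the plus strand at chr3:129835884-129875332. It had the lowest mean of the 9 in both genotypes, with 1.19, 3.06 and 1.88 RPKM from 42, 106 and 69 reads in WT cells, and 0.538, 0.672 and 0.354 RPKM from 18, 24 and 11 reads in Ucp1-KO cells. Each Ucp1-KO culture was lower than each WT culture. The Ucp1-KO mean of 0.521 ± 0.159 RPKM was 25.5% of the WT mean of 2.04 ± 0.949 RPKM (n = 3 each, SD). On log2(RPKM + 1), which shortens differences of rare transcripts, Cfi differed by -0.96 (standard error 0.23), while limma-voom on the reads gave -1.86.

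CD55, a membrane protein that speeds the decay of C3 convertases, is encoded by Cd55 on the minus strand at chr1:130439027-130462744. The abundance was 1.09, 3.13 and 3.08 RPKM in WT cells and 1.27, 5.07 and 2.72 RPKM in Ucp1-KO cells. The genotypes overlapped throughout, with means of 2.43 ± 1.16 and 3.02 ± 1.92 RPKM (n = 3 each, SD) and a log2 difference of 0.18 (standard error 0.41). This difference was -0.17 without replicate 14, -0.14 without WT replicate 10 and 0.54 without replicate 13. An antisense gene, Gm16083, shares 2.10% of the exon bases, and the library kit does not mark the strand. Daf2, the second mouse CD55 gene, was listed at 0 in all cultures.

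Vitronectin, an adhesive glycoprotein of plasma and matrix that binds integrins and late complement complexes, is encoded by Vtn on the plus strand at chr11:78499091-78502324. Its transcript had 2.52, 8.07 and 3.62 RPKM in WT cells, from 75, 235 and 112 reads. In Ucp1-KO cells it had 0.639, 1.56 and 0.306 RPKM, from 18, 47 and 8 reads, and the 8 reads of replicate 15 have an exact Poisson 95% interval of 3.45 to 15.8 for counting error alone. No Ucp1-KO culture reached the lowest WT culture, although replicate 11 stood well above the other WT cultures. The means of 4.74 ± 2.94 and 0.836 ± 0.651 RPKM (n = 3 each, SD) put Ucp1-KO cells at 17.6% of WT, the lowest ratio of the 9. The log2 difference was -1.58 (standard error 0.39), ranged from -1.88 to -1.19 when each culture was left out in turn, and was -2.56 with limma-voom on reads. In the 5 rows of Vtn from other annotations, the ratio lay between 14.9% and 21.1%.

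Clusterin, a secreted chaperone also known as apolipoprotein J, is encoded by Clu on the plus strand at chr14:65968483-65981547. Its abundance was 6.42, 16.8 and 7.49 RPKM in WT cells and 3.05, 4.68 and 2.51 RPKM in Ucp1-KO cells. As with Vtn, WT replicate 11 stood apart at the top and the genotypes did not overlap. The means of 10.2 ± 5.73 and 3.41 ± 1.13 RPKM (n = 3 each, SD) correspond to 33.3% of WT and a log2 difference of -1.27 (standard error 0.35), with a range of -1.51 to -0.88 when single cultures were left out. The 8 rows of Clu from other annotations gave ratios of 31.1% to 36.5%. Vtn, Clu and Cfi also stand on the study's own list of differing genes, which was made from these same libraries and is therefore no independent evidence.

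Across the 9 genes, 7 log2 differences were negative and 2 positive, with a median of -0.86, against a median of -0.0016 and 50.4% negative values over all tested transcripts. When WT replicate 11 and Ucp1-KO replicate 15 were both left out, the median was -0.29, and Vtn, Clu and Cfi stood at -0.98, -0.73 and -0.65. Without replicate 14 alone, the count without overlap was 7 of 9, with C4b, Cfb and Serping1 added, while the share over all tested transcripts was 9.40%. Without WT replicate 10 it was 6 of 9, with C4b and Serping1 added, and the share over all tested was 20.2%. Leaving out a culture can only raise such counts.

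**Figure D2:**
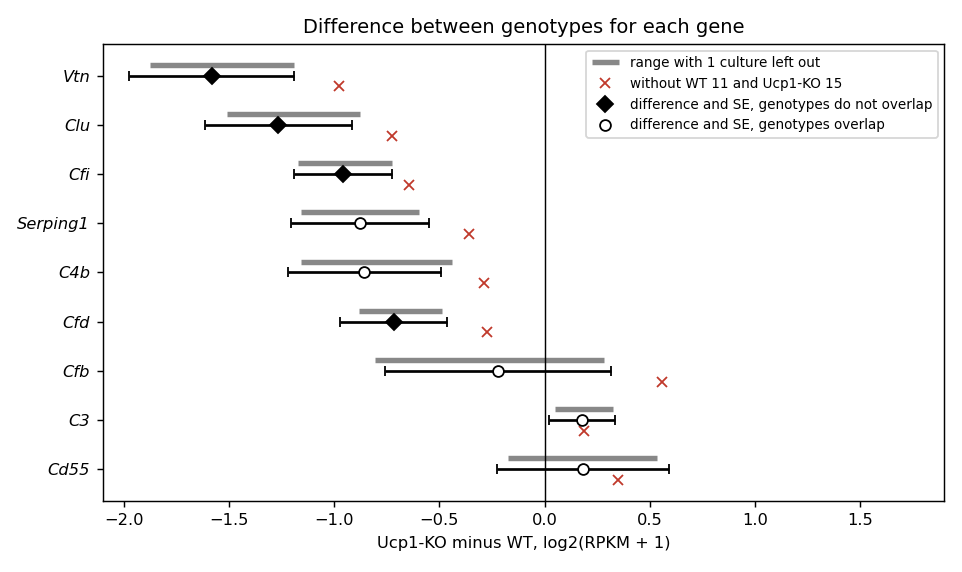
Difference in log2(RPKM + 1), Ucp1-KO minus WT, for each gene with its standard error (black), the range with single cultures left out (grey bar) and the value without WT replicate 11 and Ucp1-KO replicate 15 (red cross). Filled diamonds mark the genes without overlap between genotypes, with Vtn at -1.58 the farthest from 0, and for Cfb and Cd55 the grey bar crosses 0.

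The cultures followed a similar order in most of the 9 genes. WT replicate 11 was the highest of all cultures in 6 genes and replicate 15 the lowest in 7, where 26.8% and 26.5% of all tested transcripts did so. Both held together in 6 genes (Serping1, C4b, Cfd, Cfi, Vtn and Clu), against 10.4% of all tested. Replicate 14 was the highest culture in the other 3 genes (Cfb, C3 and Cd55), against 15.3% of all tested, and the highest of the Ucp1-KO cultures in 8. As the genes were chosen with the values of both genotypes known, nothing is read from these shares either. Within WT cells, 7 genes had replicates 11, 12 and 10 in this order from high to low, with C3 and Cfd as the exceptions.

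Marker genes of other cell types also differed between these cultures. The summed abundance of 12 stromal cell and preadipocyte markers was 745, 1707 and 1034 RPKM in WT cells and 1004, 925 and 631 RPKM in Ucp1-KO cells, so replicates 11 and 15 were again the extremes of this sum. Most of the sum in replicate 11 came from Col3a1 (718 RPKM) and Col1a1 (568 RPKM). Both of these were lowest in WT replicate 10, not in replicate 15. All 9 of these markers above the minimum had negative log2 differences (median -0.52). Among these 9, only Dcn, Lum and Pdgfra were lower in every Ucp1-KO culture, as were 5.15% of all tested transcripts. Lum stands on the study's own list from these libraries, so its direction is no independent evidence. Under the minimum, Dpp4 was also lower in every Ucp1-KO culture, at 0 in replicates 14 and 15, while Dlk1 had the higher mean in Ucp1-KO cells. The 6 endothelial markers summed to 2.78, 33.4 and 15.4 RPKM in WT against 6.77, 15.7 and 5.59 RPKM in Ucp1-KO cells, with none at 0. Macrophage markers, 9 in all and none at 0, summed to 66.7, 204 and 124 RPKM in WT against 181, 889 and 45.7 RPKM in Ucp1-KO cells, and all 9 were highest in replicate 14. The part of these cells in the values of the complement genes was not tested.

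The 9 adipocyte markers summed to between 30191 and 33396 RPKM, most of it from Fabp4. All 8 of them above the minimum had positive log2 differences (median 0.15). Cebpa was higher in every Ucp1-KO culture than in any WT culture, as were 6.04% of all tested transcripts. The 8 brown adipocyte markers summed to 1680 to 2700 RPKM, highest in replicate 15, with 7 positive log2 differences (median 0.13) and none without overlap. The defining markers of the labelled cell type were thus present in all cultures. Hepatocyte markers were near 0 with at most 0.645 RPKM over 6 genes, and Ttr, Fgb and Serpina1a were listed at 0 in every culture. Mesothelial markers summed to between 9.42 and 16.5 RPKM over 6 genes, of which Upk3b was at 0 in 5 cultures and Upk1b in 5. Of the 3 above the minimum, 2 had negative log2 differences (median -0.08). Lrrn4, like 6.04% of all tested transcripts, was higher in every Ucp1-KO culture.

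**Figure D3:**
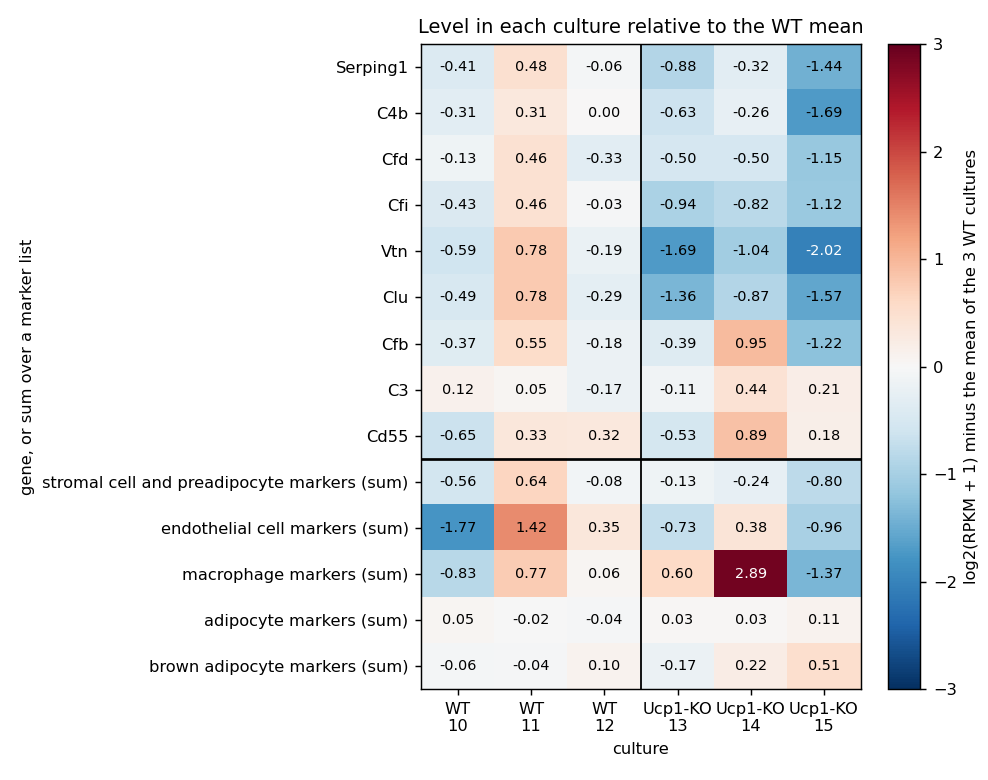
Level of each gene, and of summed marker lists, in each culture as log2(RPKM + 1) minus the mean of the WT cultures (colour and printed value; columns are cultures, WT left of the line). Replicate 11 is the warm column and replicate 15 the cold column for Serping1, C4b, Cfd, Cfi, Vtn, Clu and the stromal sum, and the macrophage sum stands out at 2.89 in replicate 14.

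The 9 transcripts took up 0.0760%, 0.122% and 0.0849% of the reads in WT replicates 10, 11 and 12 and 0.0583%, 0.0836% and 0.0445% in Ucp1-KO replicates 13, 14 and 15. Serping1 and Cfd made up 76.6% to 83.8% of their summed RPKM, and Serping1 exceeded Cfd in every culture. By mean RPKM in WT cells, the order was Serping1, Cfd, C3, C4b, Cfb, Clu, Vtn, Cd55 and Cfi. Among neighbours in this order, the ranges were separate only between Cfd and C3 and between C4b and Cfb. In Ucp1-KO cells Cd55 stood above Vtn, the order was otherwise the same, and ranges were separate only between Cfd and C3 and between C3 and C4b.

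The ratio of C3 to C4b, chosen after the values were seen, was 1.45, 0.879 and 0.932 in WT cells and 1.54, 1.74 and 4.35 in Ucp1-KO cells. It was thus higher in each Ucp1-KO culture than in any WT culture, with a narrow gap between WT replicate 10 and replicate 13. Both quantities are RPKM and hence per length of transcript.

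The rest of the cascade was surveyed with lists of complement genes other than the 9. Of 45 such genes in the table, 24 were above the minimum, and 8 were listed at 0 in all cultures. None of the 24 passed the adjusted threshold (limma, smallest adjusted p 0.868), and 10 log2 differences were negative and 14 positive, with a median of 0.08. C7 and Csmd1 were lower in every Ucp1-KO culture, and 0 were higher in all, against 5.15% and 6.04% of all tested transcripts. The signs rested on replicate 14, the highest culture in 12 of the 24, since 21 were negative without it (median -0.43), and on WT replicate 10, without which 18 were negative (median -0.21). With single cultures left out, 2 to 5 of these genes were lower and 0 to 2 higher without overlap, where 5.96% to 20.2% and 8.43% to 15.2% of all tested transcripts were. Without both WT replicate 11 and Ucp1-KO replicate 15, 3 of the 24 were lower and 11 higher without overlap, against 10.2% and 17.3% of all tested.

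C1q, the recognition molecule of the classical pathway and a typical product of macrophages, had the highest means of the initiation list over the 6 cultures, which rested on replicate 14. In WT cells alone, the means of C1s (25.9 RPKM), a protease of the C1 complex, and C4b (25.7 RPKM) exceeded those of C1qb (22.3 RPKM), C1qc (19.6 RPKM) and C1qa (16.5 RPKM). C1qa had 6.71, 30.7 and 12 RPKM in WT cells and 14.3, 91.2 and 1.42 RPKM in Ucp1-KO cells. C1qb ranged from 9.43 to 38.9 RPKM in WT and from 2.58 to 121 RPKM in Ucp1-KO cells, and C1qc from 8.95 to 33.1 and from 2.47 to 120 RPKM. All C1q chains had their highest and lowest values in replicates 14 and 15, the cultures with the highest and lowest macrophage sums. Of the 8 genes of this list under the minimum, 4 were listed at 0 in all cultures, among them Mbl1 and Mbl2, the mannose-binding lectins of the liver.

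Properdin (Cfp), which stabilises the alternative convertase and is the remaining gene of that list, had 2.58, 7.47 and 4.0 RPKM in WT against 4.10, 26.7 and 2.28 RPKM in Ucp1-KO cells, again with replicate 14 at the top. In the terminal pathway, which builds the membrane attack complex, 2 of 7 genes were above the minimum. C7, which anchors the complex, had 0.649, 1.53 and 0.750 RPKM in WT against 0.114, 0.343 and 0.0493 RPKM in Ucp1-KO cells, or 17.3% of the WT mean, without overlap. C7 passed the minimum through its WT values alone (Ucp1-KO mean 0.169 RPKM), which favours a lower result without overlap. All its Ucp1-KO values lay under the minimum, where counting error weighs heavily, and no interval was computed for them. C8g, the gamma chain of C8, had 7.05 ± 1.95 RPKM in WT against 8.02 ± 3.97 RPKM in Ucp1-KO cells (n = 3 each, SD).

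Of the regulators outside the 9, 6 were above the minimum, and 1 of these had no overlap. Log2 differences were negative in 4 and positive in 2 (median -0.10, lowest -0.44, highest 0.38). C1qbp, a mainly mitochondrial protein first found as a C1q binder, had 112 ± 9.13 RPKM in WT against 98.3 ± 8.98 RPKM in Ucp1-KO cells. Cr1l, the rodent membrane regulator Crry, was nearly level at 15.9 ± 0.225 and 14.8 ± 1.04 RPKM (n = 3 each, SD). Csmd1, a large membrane protein with complement control modules, had 0.915, 1.36 and 1.32 RPKM in WT against 0.512, 0.874 and 0.495 RPKM in Ucp1-KO cells.

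Complement receptors above the minimum numbered 6, of which 5 had positive log2 differences, and all 6 were highest in replicate 14. C3ar1, the receptor of the C3a fragment, had 3.69, 8.22 and 5.29 RPKM in WT against 7.20, 30.7 and 1.63 RPKM in Ucp1-KO cells. Itgb2, the shared chain of the leukocyte complement receptors, had 1.45, 4.75 and 3.33 RPKM in WT against 3.79, 14.6 and 1.47 RPKM in Ucp1-KO cells. Cd93, a surface lectin of endothelial and myeloid cells, had 3.68 ± 2.68 RPKM in WT against 3.86 ± 4.08 RPKM in Ucp1-KO cells (n = 3 each, SD). The Ucp1-KO cultures thus lay on both sides of the WT cultures for C3ar1 and Cd93.

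**Figure D4:**
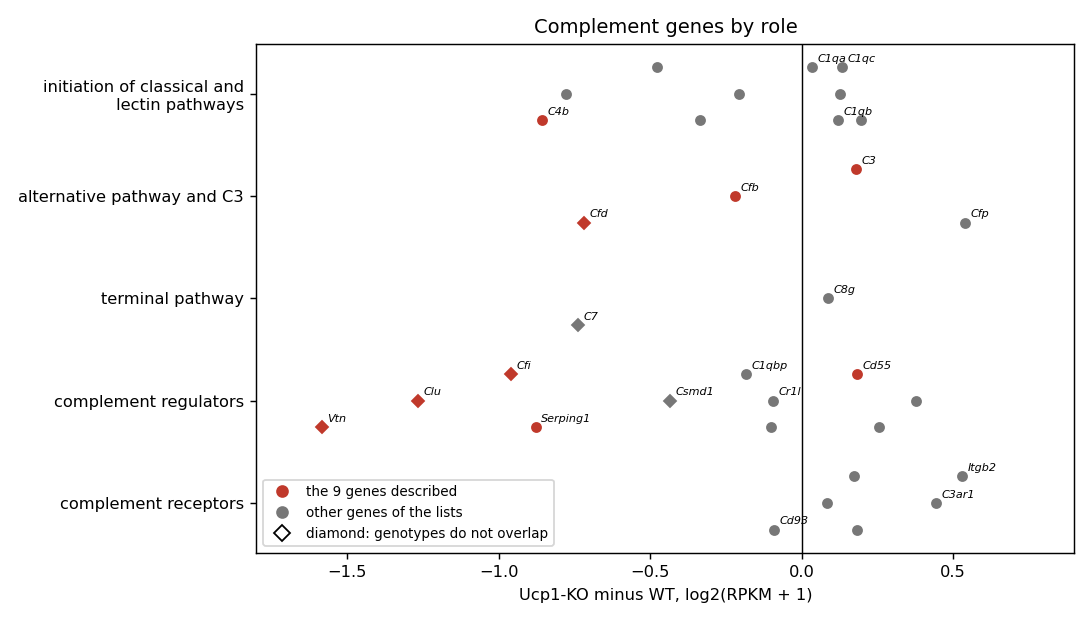
Difference in log2(RPKM + 1), Ucp1-KO minus WT, of the complement genes above the minimum, by role, with the 9 genes in red, the others in grey (names only for genes given in the text) and diamonds for genes without overlap between genotypes. Points to the left are lower in Ucp1-KO cells, and the farthest left are Vtn at -1.58 and Clu at -1.27 among the regulators.

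Binding partners of vitronectin and clusterin were listed as well, 10 of 12 being above the minimum, with 7 negative and 3 positive log2 differences (median -0.28), none without overlap and none past the adjusted threshold. Itgb1, an integrin chain, had 119 ± 9.37 RPKM in WT against 101 ± 15.7 RPKM in Ucp1-KO cells. Lrp1, an endocytic receptor, had 46.8 ± 6.67 RPKM in WT against 38.1 ± 6.50 RPKM in Ucp1-KO cells (n = 3 each, SD).

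Finally, the transcripts most similar to Vtn, Clu and C3 over the 6 cultures were sought among 7519 genes with a mean of at least 5 RPKM, by Pearson's r of log2(RPKM + 1), as a description of 6 points that share library and depth. For Vtn these were Rasl11a (r = 0.996), the matrix proteoglycan gene Dcn (0.994) and Clu (0.994). For Clu they were Pttg1ip (0.994), Mettl9 (0.991) and Rasl11a (0.990). The profile of C3 was most like those of Trappc10 (0.993), Tob1 (0.990) and Nudt1 (0.984), none of which was shared with Vtn or Clu. Dcn, for example, had 55.4, 92.2 and 69.2 RPKM in WT against 35.4, 47.9 and 34.4 RPKM in Ucp1-KO cells, in the same order of cultures as Vtn. Pearson's r takes no account of the size of a difference. Tob1 lay between 54.2 and 55.8 RPKM in all cultures, and Pttg1ip between 61.8 and 82.0 RPKM. With 7519 genes searched over 6 points, values of r this high carry little weight.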

How the data were processed

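RNA abundance was measured in 3 WT and 3 Ucp1-KO cultures of primary brown adipocytes, grouped by the sample labels. The authors obtained single-end reads (50 bases), aligned these to mouse build 38, counted uniquely assigned reads on known transcripts in Genomatix software and deposited RPKM values, normalised to transcript length and mapped reads. The deposited columns all name a culture (0 without one). The members and gene lists were chosen with earlier results of these data known.

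The 28890 RefSeq rows of 168326 were used, and the 16865 with a mean of at least 0.5 RPKM (12259 genes) were compared. The planned design held a count test in reserve. As the values are RPKM, limma 3.58.1 in R 4.3.3 was used with an intensity trend on log2(RPKM + 1), all 6 cultures and no covariate. Benjamini-Hochberg adjustment was applied to p-values (threshold 0.05), which, as no source used here says whether the cultures of a genotype came from separate animals, measure only the spread between them. Whole reads were recovered from RPKM and transcript lengths for all 16865 tested transcripts. No molecular identifiers were used, so the intervals given cover only the error of counting. The limma comparison was also tested on simulated data with known changes.

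Named genes are the 9 members and, of each list, the 3 most abundant plus any without overlap between genotypes, less those not reported here. Cfp, C1s, C4a, Daf2, Mbl1 and Mbl2 were added after their values were seen. Gene positions are those of GENCODE M21 and promoters those of RefSeq, both on GRCm38. Alternatives were a constant of 0.1 RPKM, no minimum, 1 row per gene, all annotations, median-of-ratios scaling, limma-voom on reads and leaving out cultures. Other steps ran in Python 3.11.15 (scipy 1.17.1, numpy 2.4.6, pandas 2.3.3), and plots were drawn with matplotlib 3.10.9.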

Additional observations from a re-analysis of the deposited data

How the results depend on the processing

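The count of transcripts past the adjusted threshold (limma) was 0 under all alternatives but 1, being 22 with no minimum mean RPKM, none of them a member. The number of the 9 genes that were lower in every Ucp1-KO culture was 4, and lay between 4 and 7 with 1 culture left out (6 without WT replicate 10 and 7 without Ucp1-KO replicate 14, where 20.2% and 9.40% of all tested transcripts did so). It was 5 with all annotations (4.61% of all tested) and 6 with median-of-ratios scaling (6.10%). Their median log2 difference lay between -1.03 and -0.50 with 1 culture left out, and was -0.29 without WT replicate 11 and Ucp1-KO replicate 15 together, an alternative chosen after seeing the data. No paired analysis was possible because the genotypes share no replicate number. Depth limits Vtn and Cfi in Ucp1-KO cells, with as few as 8 and 11 reads, and Cd55 in WT cells with as few as 47.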

Other observations

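C1 inhibitor also blocks the contact system, in which kallikrein releases bradykinin from kininogen. Of 5 listed genes of this system, 2 were above the minimum of 0.5 RPKM, and 0 passed the adjusted threshold (limma). Kng1, a kininogen gene, had 1.07, 2.97 and 1.28 RPKM in WT cells and 0.141, 0.562 and 0.190 RPKM in Ucp1-KO cells, without overlap and at 16.8% of the WT mean. Kng1 passed the minimum through its WT values alone (Ucp1-KO mean 0.298 RPKM), which favours such a result. Kng1 stands on the list of differing genes that the study made from these libraries, so its direction is no independent evidence. Its paralog Kng2 had 10.9, 11.5 and 7.03 RPKM in WT against 7.34, 6.66 and 5.55 RPKM in Ucp1-KO cells, and here replicate 13 exceeded WT replicate 12. How reads shared by these paralogs were assigned is not known beyond their being uniquely identified, which leaves the values of both uncertain. F11, the factor XI gene, was listed at 0 in all cultures.

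Of 16 inflammatory and interferon genes, all above the minimum, 0 passed the adjusted threshold, and 9 were highest in replicate 14. Log2 differences were negative in 5 and positive in 11 (median 0.17, lowest -1.18, highest 1.08). Hp, the acute phase protein haptoglobin, was the most abundant with 1496, 1777 and 828 RPKM in WT against 1478, 619 and 288 RPKM in Ucp1-KO cells. Isg15, an interferon-induced ubiquitin-like protein, had 36.7, 31.9 and 15.5 RPKM in WT against 43.5, 105 and 11.7 RPKM in Ucp1-KO cells. Stat3 and Socs3, a transducer of interleukin signals and its feedback inhibitor, were lower in every Ucp1-KO culture than in any WT culture, as were 5.15% of all tested transcripts, and 0 of the 16 were higher in all. Stat3 had 34.5, 38.6 and 32.0 RPKM in WT against 30.3, 28.6 and 21.2 RPKM in Ucp1-KO cells. Socs3 had 4.95, 10.9 and 5.93 RPKM in WT against 3.60, 3.65 and 1.47 RPKM in Ucp1-KO cells.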
